A study of Solanum lycopersicum with 29 samples.

Results

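Gibberellin (GA) oxidase, GID1 receptor and DELLA genes were followed in tomato anthers of 4 lines at 2 temperatures. The members were 9 genes fixed by identifier: the GA 20-oxidases GA20ox1 (Solyc03g006880), GA20ox2 (Solyc06g035530) and GA20ox3 (Solyc11g072310), the GA 3-oxidases GA3ox1 (Solyc06g066820) and GA3ox2 (Solyc03g119910), the receptors GID1a (Solyc01g098390), GID1b1 (Solyc09g074270) and GID1b2 (Solyc06g008870), and the DELLA gene PROCERA (Solyc11g011260). The identifiers place them on chromosomes 1, 3, 6, 9 and 11. Of the 35092 genes in the count table, 8 were members, and GID1b2 was not analysed here. Of these 8 genes, 6 passed the filter on low counts and were tested, while GA20ox3 and GA3ox2 did not pass it.

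Anthers with polarized microspores were sampled from plants of cv. Micro-Tom, a dwarf cultivar that carries a mutation in brassinosteroid synthesis, so that every group shared this background. Long-term mild heat (LTMH) was 34°C by day and 28°C by night at 68% relative humidity for 8 days from flowering, and control temperature (CT) was 25°C and 19°C at 50%, the humidity being set to keep the vapor pressure deficit of both conditions equal. The lines were Never ripe, an ethylene-insensitive mutant, 35S:nahG (35S::nahG in the labels), which expresses a bacterial gene for salicylic acid degradation, 35S:asCCD7 (35S::asCCD7 in the labels), a strigolactone biosynthesis antisense line, and the wild type (WT). The 35S promoter is active in most tissues and not specific to anthers, 35S:nahG was introgressed into Micro-Tom, and the number of independent transgenic events was not given in the sources used here. Each library came from 6 pooled anthers. LTMH was represented by 3 libraries each of Never ripe, 35S:nahG and WT and 4 of 35S:asCCD7, and CT by 4 libraries of each line, 29 in all.

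Active GAs are made from inactive precursors by 20-oxidases and then 3-oxidases, and are inactivated by 2-oxidases. An active GA binds a GID1 receptor, and the complex binds DELLA proteins such as PROCERA, which restrain GA responses until they are marked for degradation. Low GA generally raises transcripts of 20-oxidases, 3-oxidases and GID1 receptors and lowers those of 2-oxidases, a feedback described in several plants. GA is needed for stamen and pollen development, in which the tapetum, the layer that feeds the microspores and supplies wall material, takes part.

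The libraries held 32273189 to 42353956 counted reads (median 34474482), and 3 reads, taken here as the limit of reliable detection in a library, equal 0.0870 CPM (counts scaled to a common library size) at the median depth. Counts were compared with edgeR's quasi-likelihood test on 21637 genes, and a gene was called at a Benjamini-Hochberg adjusted p under 0.05 and at least 1.5-fold change. The 4 tapetum and pollen wall genes TDF1, CYP703A2, CYP704B1 and WBC27 had reads in every CT library, but their summed FPKM (fragments scaled by gene length and library size) spread widely within groups. It was 1.81 to 5.63 in Never ripe LTMH against 19.7 to 888 in Never ripe CT, and 2.66 to 3.36 in 35S:nahG LTMH against 1870 to 2805 in 35S:nahG CT. In 35S:asCCD7 it was 1.52 to 74.0 in LTMH against 0.735 to 104 in CT, and in WT it was 2.03 to 79.9 in LTMH against 85.4 to 893 in CT. The paper describes TDF1, WBC27 and CYP703A2 as tapetum genes active at early microspore stages and repressed later. Whether the libraries differed in stage was not tested. CYP703A2 and CYP704B1 made up most of the sum, and TDF1, a regulator of tapetum development, did not follow it between lines. In CT TDF1 averaged 0.0675 FPKM in Never ripe, 0.543 FPKM in 35S:nahG and 0.340 FPKM in 35S:asCCD7, against 1.32 FPKM in WT, and it had 0 reads in part of the LTMH libraries of Never ripe and 35S:nahG. Replicate 4 of 35S:asCCD7 CT stood apart, with the lowest tapetum sum and the lowest median correlation to its own group (0.963, against at least 0.969 in every other library). CCD7 reads were higher in 35S:asCCD7 than in WT (mean 5.62 against 0.589 FPKM in CT), in counts that hold sense and antisense reads together.

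The 6 tested members differed widely in level per gene length. PROCERA was the most abundant, with a mean of 138 FPKM over the 29 libraries, followed by GID1b1 at 6.18, GID1a at 3.75, GA20ox1 at 3.09, GA20ox2 at 1.38 and GA3ox1 at 0.161 FPKM. PROCERA also varied least, with a ratio of 1.32 between its highest and lowest group means. The same ratio was 2.09 for GID1a, 2.96 for GID1b1, 14.3 for GA20ox2, 31.0 for GA3ox1 and 49.5 for GA20ox1. In 5 of these 6 genes the lowest group was 35S:nahG CT, and GID1a was instead highest there. In bulk anther RNA, fewer cells of a type and less RNA per cell cannot be told apart.

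**Figure D1:**
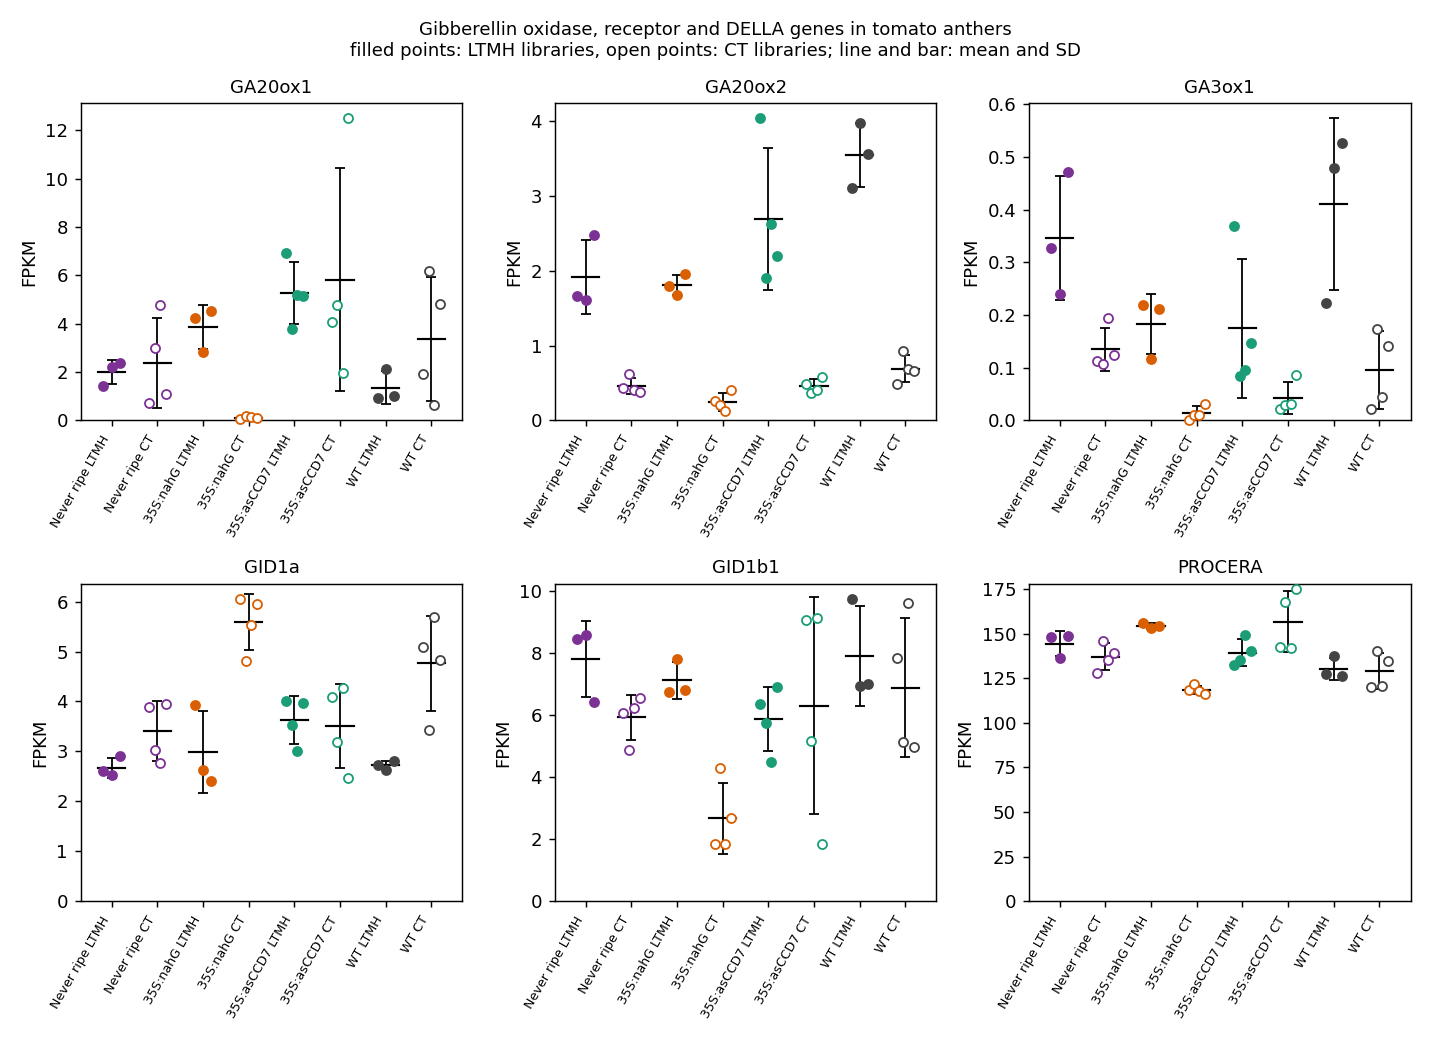
Deposited FPKM of the 6 tested members in each of the 29 libraries (vertical axes, each from 0), by line and temperature (horizontal axis), with filled points for LTMH, open points for CT, and line and bar for mean and SD (n = 3 or 4). GA20ox2 in LTMH lies above CT in all 4 lines, and GA20ox1 in 35S:nahG CT stays at or below 0.192 FPKM.

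In LTMH against CT, between 1 and 5 members were called in each line. In 35S:nahG, 5 of the 6 tested members were called, 4 higher and 1 lower in LTMH, where 27.5% of all tested genes were called (14.5% higher and 13% lower). In Never ripe, 2 of 6 were called, both higher, where 8.43% of all tested genes were called (4.41% higher). In 35S:asCCD7, 1 of 6 was called, higher, where 7.17% were called (4.37% higher). In WT, 3 of 6 were called, 2 higher and 1 lower, where 17.2% were called (8.77% higher and 8.43% lower). The median log2 fold change of the 6 members was 2.14 in 35S:nahG, 0.24 in Never ripe, −0.03 in 35S:asCCD7 and 0.11 in WT, and that of all tested genes was at most 0.01 from 0 in each line.

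**Figure D2:**
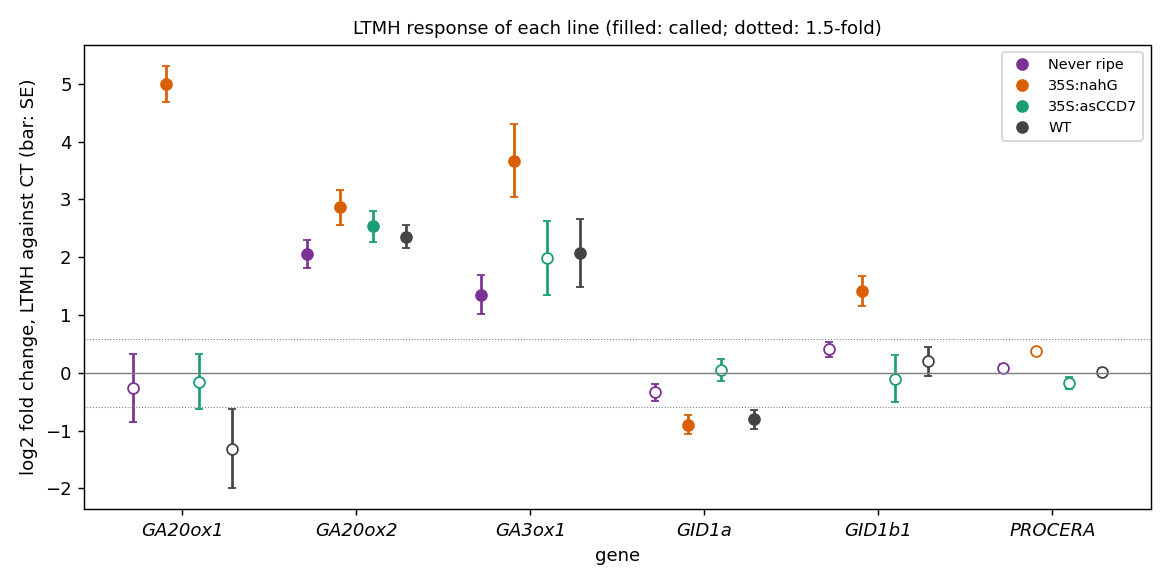
Log2 fold change in LTMH against CT (vertical axis, bars are SE) of the 6 tested members in each line. Filled points were called and dotted lines mark a 1.5-fold change. GA20ox2 was called higher in all 4 lines (2.05 to 2.87), GA20ox1 only in 35S:nahG (5.00), and PROCERA in none.

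Differences from WT were most frequent in 35S:nahG. In CT, 4 of the 6 members were called in 35S:nahG against WT, all lower, where 16.4% of all tested genes were called (8.55% lower). Their median log2 fold change was −1.41, against 0.01 over all tested genes. In Never ripe against WT in CT, 0 of 6 were called by edgeR and by DESeq2, where 10.5% of all tested genes were called by edgeR. At an unadjusted p under 0.05 there were 2 of 6, against 38% of all tested genes. In 35S:asCCD7 against WT in CT, 0 of 6 were likewise called by either tool, where 3.81% of all tested genes were called by edgeR, and 2 of 6 passed an unadjusted p under 0.05, against 25.4% of all tested genes.

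In LTMH, 2 of 6 members were called in 35S:nahG against WT, 1 higher and 1 lower, where 9.41% of all tested genes were called (4.59% higher and 4.83% lower). In Never ripe against WT 1 of 6 was called, lower, where 4.34% were called (1.9% lower), and in 35S:asCCD7 against WT 1 of 6 was called, higher, where 5.53% were called (3.66% higher). The median log2 fold change of the members in LTMH was −0.01 in 35S:nahG, −0.03 in Never ripe and −0.13 in 35S:asCCD7. The comparisons at each temperature share the WT libraries and are not independent of each other.

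**Figure D3:**
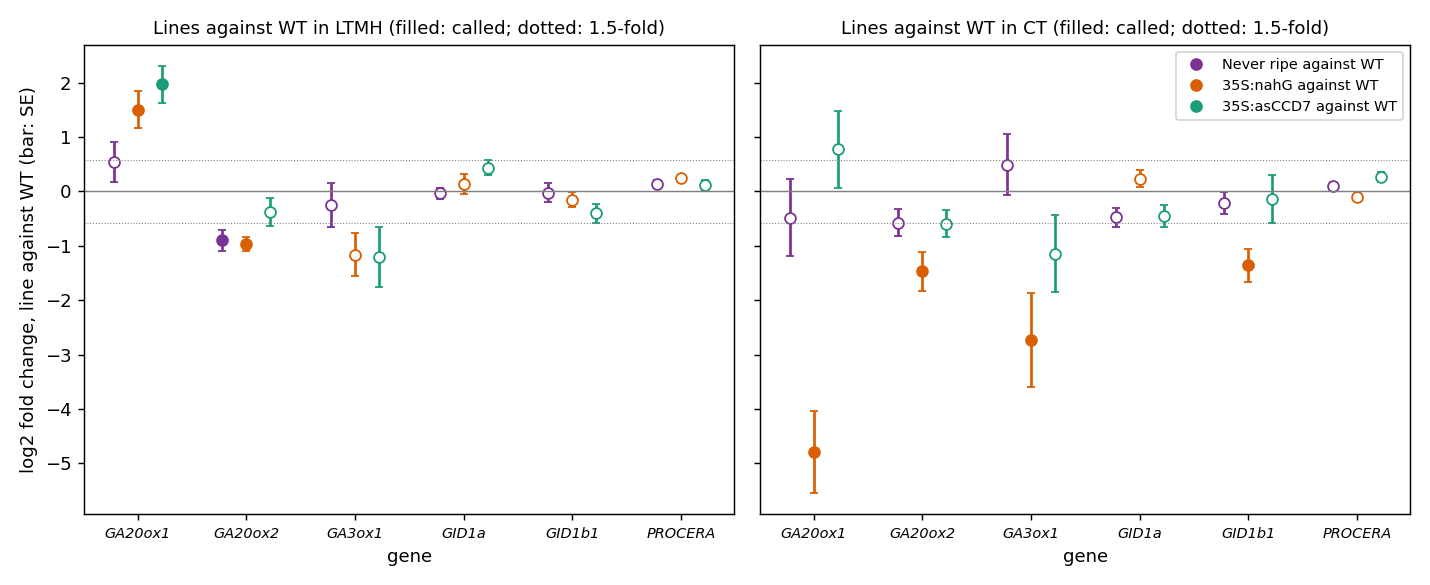
Log2 fold change of each line against WT (vertical axis, bars are SE) for the 6 tested members, in LTMH (left) and CT (right). Filled points were called and dotted lines mark a 1.5-fold change. The called points are GA20ox1 (1.5 and 1.97) and GA20ox2 (−0.90 and −0.97) in LTMH, and 4 members of 35S:nahG in CT.

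GA20ox2, one of the 20-oxidases that make the precursors of active GA, rose in LTMH in every line. It was at 1.66, 1.61 and 2.49 FPKM in Never ripe LTMH against 0.435, 0.627, 0.407 and 0.376 FPKM in Never ripe CT. In 35S:nahG it was at 1.80, 1.68 and 1.95 FPKM in LTMH against 0.256, 0.200, 0.124 and 0.412 FPKM in CT. In each line the lowest LTMH library lay above the highest CT library. Such a lack of overlap was common with 3 or 4 libraries a group. In LTMH against CT it held for 33.6% of all tested genes in Never ripe and 55.4% in 35S:nahG. The share was 21.2% in 35S:asCCD7 and 44.0% in WT.

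For GA20ox2 the 35S:asCCD7 libraries held 4.05, 1.91, 2.62 and 2.20 FPKM in LTMH against 0.492, 0.372, 0.404 and 0.581 FPKM in CT. WT held 3.11, 3.98 and 3.56 FPKM in LTMH against 0.492, 0.932, 0.686 and 0.661 FPKM in CT. The log2 fold change was 2.05 ± 0.24 (SE) in Never ripe (edgeR adjusted p = 0.00226), 2.87 ± 0.30 in 35S:nahG (edgeR adjusted p = 5.56e-05), 2.53 ± 0.27 in 35S:asCCD7 (edgeR adjusted p = 0.00195) and 2.35 ± 0.20 in WT (edgeR adjusted p = 0.000119). None of the 3 interactions of line and temperature was called for GA20ox2, with log2 differences of −0.31 ± 0.33 for Never ripe, 0.51 ± 0.38 for 35S:nahG and 0.19 ± 0.35 for 35S:asCCD7 (edgeR adjusted p = 0.614, 0.385 and 0.803).

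The group mean of GA20ox2 was highest in WT at both temperatures, although the WT and 35S:asCCD7 libraries overlapped. In LTMH it was lower in 35S:nahG than in WT (log2 fold change −0.97 ± 0.13, edgeR adjusted p = 0.00202). The libraries of both lines did not overlap in GA20ox2, as for 43.2% of all tested genes. GA20ox2 was also lower in Never ripe than in WT in LTMH (−0.90 ± 0.20, edgeR adjusted p = 0.0375). Leaving out 1 library at a time, the Never ripe call was lost without WT replicate 2, 3 or 4 or Never ripe replicate 1 or 3 (edgeR adjusted p up to 0.138). In CT, GA20ox2 was again lower in 35S:nahG (−1.47 ± 0.35, edgeR adjusted p = 0.01), while −0.57 ± 0.25 in Never ripe and −0.59 ± 0.25 in 35S:asCCD7 were not called (edgeR adjusted p = 0.119 and 0.173). Along the order of group means, each neighbouring pair overlapped except 35S:nahG LTMH, the lowest LTMH group, above WT CT, the highest CT group.

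GA3ox1, a 3-oxidase that carries out the last step to active GA, was present at few reads. Its mean was higher in LTMH in every line, and edgeR called the rise in 3 of the 4. WT LTMH had 21, 48 and 51 reads (0.224, 0.479 and 0.527 FPKM) against 2, 17, 4 and 13 reads in WT CT (0.0222, 0.174, 0.0436 and 0.142 FPKM). Never ripe had 33, 23 and 46 reads in LTMH against 10, 12, 19 and 12 reads in CT. In both lines every LTMH library lay above every CT library in FPKM, where 44.0% (WT) and 33.6% (Never ripe) of all tested genes did not overlap.

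In 35S:nahG GA3ox1 had 24, 12 and 21 reads in LTMH against 0, 1, 1 and 3 reads in CT, where no library passed the limit of 3 reads. The ratio of the summed reads at equal depth was 13.8, with a 95% interval of 5.60 to 44.3 that covers counting error only. In 35S:asCCD7 it had 40, 9, 10 and 16 reads in LTMH against 2, 3, 3 and 9 reads in CT, and the groups overlapped. The 9 reads of 35S:asCCD7 CT were those of replicate 4, which stood apart from the other 3 libraries of its group.

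The GA3ox1 log2 fold change in LTMH was 2.08 ± 0.59 in WT (edgeR adjusted p = 0.0255), 1.35 ± 0.34 in Never ripe (edgeR adjusted p = 0.0319) and 3.67 ± 0.64 in 35S:nahG (edgeR adjusted p = 0.00115). In 35S:asCCD7 it was 1.98 ± 0.64 and missed the threshold (edgeR adjusted p = 0.0754). It passed without 35S:asCCD7 CT replicate 4 (2.59, edgeR adjusted p = 0.0449), with DESeq2 (adjusted p = 0.0444) and in the fit over all 8 groups (edgeR adjusted p = 0.0136). The WT call was lost without WT CT replicate 3 or WT LTMH replicate 3 or 4 (edgeR adjusted p up to 0.0878). The Never ripe call was lost without CT replicate 1, 2 or 4 or LTMH replicate 1 or 4 (edgeR adjusted p up to 0.0825) and in the fit over all 8 groups (edgeR adjusted p = 0.0855). None of the interactions was called for GA3ox1, and they carried large errors, from −0.74 ± 0.73 in Never ripe and −0.09 ± 1.19 in 35S:asCCD7 to 1.59 ± 0.98 in 35S:nahG.

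Against WT, GA3ox1 was called in 35S:nahG CT alone among the 6 line comparisons. The log2 fold change was −2.73 ± 0.86 (edgeR adjusted p = 0.0333), from 5 reads in 35S:nahG CT against 36 in WT CT, a ratio of 0.136 at equal depth with a 95% counting interval of 0.0417 to 0.348. The libraries overlapped, and 5 of the 8 fits that left out a library lost the call (without WT CT replicate 2 or 4 or 35S:nahG CT replicate 1, 2 or 3, edgeR adjusted p up to 0.0886). In LTMH the log2 fold change was −1.16 ± 0.40 in 35S:nahG, −1.21 ± 0.56 in 35S:asCCD7 and −0.26 ± 0.40 in Never ripe (edgeR adjusted p = 0.0725, 0.204 and 0.734). The first passed without WT replicate 2 (−1.45, edgeR adjusted p = 0.0267) and the second without 35S:asCCD7 replicate 1 (−1.89, edgeR adjusted p = 0.0488).

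GA20ox1, the other 20-oxidase that could be tested, had the widest range of all members and its response differed between lines. In 35S:nahG it had 269, 167 and 259 reads in LTMH (4.25, 2.83 and 4.52 FPKM) against 3, 11, 7 and 5 reads in CT (0.0569, 0.192, 0.129 and 0.0925 FPKM). The highest 35S:nahG CT library was below the lowest library of every other group. The rise in LTMH had a log2 fold change of 5.00 ± 0.31 (edgeR adjusted p = 2.05e-06).

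WT anthers had 0.921, 2.14 and 1.02 FPKM of GA20ox1 in LTMH against 1.90, 6.17, 0.622 and 4.81 FPKM in CT. The groups overlapped, and the log2 fold change of −1.31 ± 0.69 was not called (edgeR adjusted p = 0.171). Without WT CT replicate 3, the CT library with the least GA20ox1 and the highest tapetum sum of its group, it was −1.65 (edgeR adjusted p = 0.0318). Never ripe had 1.42, 2.19 and 2.38 FPKM in LTMH against 0.724, 2.99, 4.76 and 1.10 FPKM in CT, with a log2 fold change of −0.26 ± 0.60 (edgeR adjusted p = 0.786).

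In 35S:asCCD7 GA20ox1 was at 6.93, 3.79, 5.18 and 5.17 FPKM in LTMH against 4.06, 4.78, 1.96 and 12.5 FPKM in CT. The value of 12.5 was that of replicate 4, and the log2 fold change was −0.15 ± 0.48 (edgeR adjusted p = 0.857), or 0.55 without that library (edgeR adjusted p = 0.266). The difference between the LTMH responses of 35S:nahG and WT was itself called, at a log2 difference of 6.31 ± 0.93 (edgeR adjusted p = 0.000795). For Never ripe it was 1.03 ± 0.99 and for 35S:asCCD7 1.17 ± 0.90, neither of them called (edgeR adjusted p = 0.581 and 0.491).

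Between lines, GA20ox1 changed in opposite directions at the 2 temperatures in 35S:nahG against WT. In LTMH it was higher in 35S:nahG (log2 fold change 1.5 ± 0.34, edgeR adjusted p = 0.0168), and in CT lower (−4.80 ± 0.75, edgeR adjusted p = 0.00118). At neither temperature did the libraries of the 2 lines overlap, as for 43.2% of all tested genes in LTMH and 35.1% in CT. The call in LTMH was lost without 35S:nahG replicate 4 (1.37, edgeR adjusted p = 0.0550) and in the fit over all 8 groups (edgeR adjusted p = 0.146).

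GA20ox1 was also higher in 35S:asCCD7 than in WT in LTMH (1.97 ± 0.34, edgeR adjusted p = 0.0147), again with no overlap, as for 28.4% of all tested genes. This call was lost without WT replicate 2 (1.75, edgeR adjusted p = 0.0656) or WT replicate 4 (1.80, edgeR adjusted p = 0.0740). In CT the difference was 0.77 ± 0.70 and was not called (edgeR adjusted p = 0.521), and it was 0.08 without 35S:asCCD7 CT replicate 4 (edgeR adjusted p = 0.955). Never ripe against WT was not called at either temperature, at 0.54 ± 0.37 in LTMH and −0.48 ± 0.70 in CT (edgeR adjusted p = 0.405 and 0.657).

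The tapetum sum moved with GA20ox1 in several places. The 4 libraries of 35S:nahG CT had both the least GA20ox1 and the highest tapetum sums of all 29 libraries (1870 to 2805 FPKM), although TDF1 alone was not highest there. Next in both respects came WT CT replicate 3, with 0.622 FPKM of GA20ox1 beside a sum of 893, and Never ripe CT replicate 1, with 0.724 FPKM beside 888. At the other end, 35S:asCCD7 CT replicate 4 had the most GA20ox1 (12.5 FPKM) beside the lowest sum (0.735).

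The order did not hold throughout. Never ripe CT replicate 3 had the most GA20ox1 of its group (4.76 FPKM) beside a sum of 132, while replicate 2 had 2.99 FPKM beside 19.7. In LTMH 35S:asCCD7 had 3.79 to 6.93 FPKM of GA20ox1 beside sums of 1.52 to 74.0, and WT had 0.921 to 2.14 FPKM beside sums of 2.03 to 79.9. The part of the tapetum or of developmental stage in the GA20ox1 results was not tested.

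**Figure D4:**
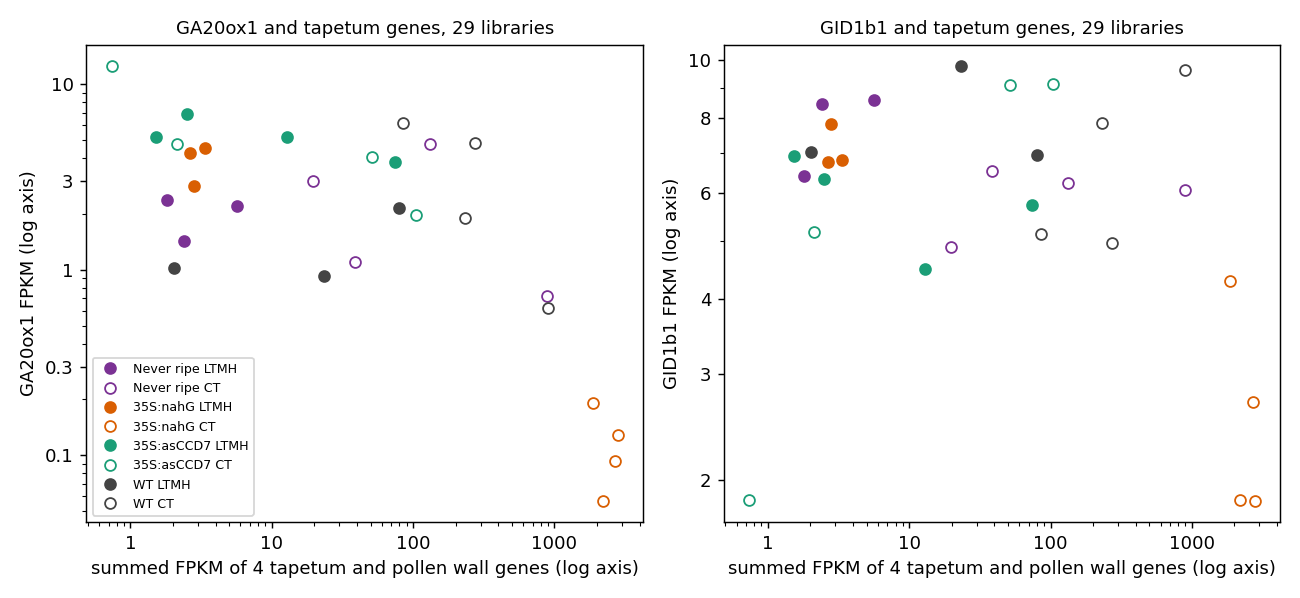
FPKM of GA20ox1 (left) and GID1b1 (right) against the summed FPKM of TDF1, CYP703A2, CYP704B1 and WBC27, both axes logarithmic, with 1 point for each of the 29 libraries. The 35S:nahG CT libraries lie at the lower right of both panels, at sums of 1870 to 2805 FPKM, and 35S:asCCD7 CT replicate 4 at the far left, at 0.735.

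The remaining oxidases were near or under the limit of detection. GA20ox3, the third 20-oxidase, had 51 reads over all 29 libraries and passed 3 reads in 4 of them. These 4 libraries were 35S:asCCD7 LTMH replicate 1 with 5 reads, 35S:asCCD7 CT replicate 4 with 13, and WT CT replicates 2 and 4 with 8 and 9. The same libraries of 35S:asCCD7 CT and WT CT were also the highest of their groups in GA20ox1. GA3ox2, the other 3-oxidase, had 3 reads in all, with at most 2 in a library, and was under the limit of 3 reads in every library.

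The receptors, which bind active GA in the nucleus, had a smaller range of group means than the 3 tested oxidases, and their called changes in LTMH were not in the same direction. GID1a fell in LTMH in 35S:nahG and WT. In 35S:nahG it was at 3.94, 2.64 and 2.40 FPKM in LTMH against 6.05, 4.81, 5.53 and 5.95 FPKM in CT, and in WT at 2.73, 2.64 and 2.81 FPKM in LTMH against 5.09, 3.43, 5.69 and 4.84 FPKM in CT. Neither line had overlapping groups, as for 55.4% of all tested genes in 35S:nahG and 44.0% in WT.

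The log2 fold change of GID1a was −0.90 ± 0.17 in 35S:nahG (edgeR adjusted p = 0.00186) and −0.81 ± 0.16 in WT (edgeR adjusted p = 0.00648). Never ripe had 2.60, 2.52 and 2.90 FPKM in LTMH against 3.89, 3.02, 2.76 and 3.96 FPKM in CT, with a change of −0.34 ± 0.15 that was not called (edgeR adjusted p = 0.143). In 35S:asCCD7 it ranged from 3.00 to 4.01 FPKM in LTMH against 2.47 to 4.26 FPKM in CT, a change of 0.05 ± 0.18 (edgeR adjusted p = 0.883). The difference between the responses of 35S:asCCD7 and WT was 0.86 ± 0.26 and was not called by edgeR (adjusted p = 0.121), but it was by DESeq2 (adjusted p = 0.0476) and in edgeR without 35S:asCCD7 LTMH replicate 3 (0.94, edgeR adjusted p = 0.0488). GID1a was called in none of the 6 comparisons of a line with WT by edgeR, with changes from −0.48 ± 0.17 in Never ripe CT to 0.44 ± 0.14 in 35S:asCCD7 LTMH. The difference in Never ripe CT passed without WT CT replicate 2 (−0.61, edgeR adjusted p = 0.0109).

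GID1b1 was called in LTMH against CT in 35S:nahG and in none of the other 3 lines. Its values were 6.76, 7.82 and 6.82 FPKM in 35S:nahG LTMH against 1.85, 4.29, 1.85 and 2.70 FPKM in 35S:nahG CT, a log2 fold change of 1.42 ± 0.26 (edgeR adjusted p = 0.00160). WT had 9.76, 6.95 and 7.02 FPKM in LTMH against 7.84, 5.14, 9.63 and 4.96 FPKM in CT, a change of 0.20 ± 0.24 (edgeR adjusted p = 0.564). The 35S:nahG groups did not overlap, as for 55.4% of all tested genes, and those of WT did.

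In Never ripe the GID1b1 change in LTMH was 0.41 ± 0.13 (edgeR adjusted p = 0.0714), and in 35S:asCCD7 −0.10 ± 0.41 (edgeR adjusted p = 0.892), or −0.41 without CT replicate 4 (edgeR adjusted p = 0.244). In CT GID1b1 was lower in 35S:nahG than in WT (−1.36 ± 0.31, edgeR adjusted p = 0.00766), with no overlap, as for 35.1% of all tested genes. In LTMH the difference was −0.15 ± 0.14 (edgeR adjusted p = 0.464). The difference between the LTMH responses of 35S:nahG and WT was 1.22 ± 0.40, just past the threshold (edgeR adjusted p = 0.0497), and 10 of the 14 fits that left out a library lost it (edgeR adjusted p up to 0.111). These were the fits without WT CT replicate 1 or 3, WT LTMH replicate 3 or 4, 35S:nahG CT replicate 1, 3 or 4, or any of the 3 libraries of 35S:nahG LTMH. It was also lost with RLE normalization, with no filter on low counts and in the fit over all 8 groups (edgeR adjusted p = 0.0507, 0.0527 and 0.117).

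Low GID1b1 did not always go with a high tapetum sum. The 3 35S:nahG CT libraries under 3 FPKM had sums of 2196 to 2805, but 35S:asCCD7 CT replicate 4 had 1.85 FPKM of GID1b1 beside the lowest sum of all, where its group otherwise held 5.18 to 9.12 FPKM. WT CT replicate 3, with a sum of 893, had the most GID1b1 of its group (9.63 FPKM). The part of the tapetum or of developmental stage in the GID1b1 results was not tested.

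PROCERA, the DELLA repressor of GA responses, was not called in any of the 10 pairwise comparisons. Its libraries held 136 to 149 FPKM in Never ripe LTMH against 128 to 146 in CT, 132 to 149 in 35S:asCCD7 LTMH against 142 to 175 in CT, and 126 to 137 in WT LTMH against 120 to 140 in CT. In 35S:nahG it was at 156, 153 and 154 FPKM in LTMH against 119, 122, 118 and 116 FPKM in CT. Only in this line did the LTMH and CT libraries of PROCERA not overlap. There all 6 tested members and 55.4% of all tested genes did not overlap. In CT the PROCERA libraries of 35S:asCCD7 also lay above those of WT (0.27 ± 0.09, edgeR adjusted p = 0.114). In that comparison 16.5% of all tested genes did not overlap.

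The increase of PROCERA in 35S:nahG was small and precise, at a log2 fold change of 0.38 ± 0.05 (edgeR adjusted p = 0.000255), or 1.30-fold, under the 1.5-fold limit for a call. In LTMH the level was 1.18-fold higher in 35S:nahG than in WT (0.24 ± 0.05, edgeR adjusted p = 0.0132), and in CT the difference was −0.11 ± 0.07 (edgeR adjusted p = 0.238). The interaction of line and temperature for 35S:nahG was 0.36 ± 0.09 (edgeR adjusted p = 0.0114), also under 1.5-fold. In WT the change in LTMH was 0.01 ± 0.08 (edgeR adjusted p = 0.896).

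Among the 6 members, the interaction of line and temperature was called for GA20ox1 and GID1b1 in 35S:nahG, both higher, where 10.1% of all tested genes were called (5.54% higher). In Never ripe 0 of 6 were called by edgeR and by DESeq2, where 5.81% of all tested genes were called by edgeR, and 0 of 6 passed an unadjusted p under 0.05, against 23.7% of all tested genes. In 35S:asCCD7 0 of 6 were called by edgeR, where 0.319% were called, and 1 of 6 (GID1a) by DESeq2. At an unadjusted p under 0.05 there was 1 of 6, against 19.2% of all tested genes.

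Other genes of the pathway were taken from gene annotation in the study's supplements, since the files themselves carry identifiers without names. This gave 7 genes, of which 6 were in the count table and 4 were tested: KAO1 (Solyc01g080900), an ent-kaurenoic acid oxidase of early GA synthesis, GA2ox2 (Solyc07g056670), a GA 2-oxidase, GAI-like 1 (Solyc10g086370), a gene annotated as a DELLA protein, and RSI-1 (Solyc11g011210), of the gibberellin-regulated protein family. GA2ox2 and RSI-1 came from a table of genes selected with results of these samples, so that their differences between 35S:nahG and WT in LTMH, and the 35S:nahG interactions that contain them, are given as a description with no test. Their other comparisons that use WT LTMH, among them LTMH against CT in WT and the interactions, share the WT libraries with that selection. Those of LTMH against CT in 35S:nahG share the 35S:nahG LTMH libraries with it. The p-values of all these comparisons are a description and no separate test. GAI (Solyc05g051300) and snakin-2 (Solyc01g111075) had 0 reads in all libraries. In LTMH against CT, 2 of these 4 genes were called higher and 1 lower in 35S:nahG, where 14.5% and 13% of all tested genes were. In 35S:asCCD7 1 was called higher and 1 lower, where 4.37% and 2.8% were. In WT 1 was called higher and 1 lower, where 8.77% and 8.43% were. In Never ripe 0 were called by edgeR (GA2ox2 and GAI-like 1 by DESeq2), where 8.43% of all tested genes were called by edgeR. Against WT in CT, 2 were called higher and 1 lower in 35S:nahG, where 7.85% and 8.55% of all tested genes were. In Never ripe and 35S:asCCD7 0 were called by edgeR (GA2ox2 in Never ripe by DESeq2), where 10.5% and 3.81% were called by edgeR. Against WT in LTMH, 1 (GA2ox2) was called lower in Never ripe and in 35S:asCCD7, where 1.9% and 1.87% of all tested genes were called lower. For 35S:nahG in LTMH, GA2ox2 and RSI-1 are described below without a test, and KAO1 and GAI-like 1 were not called.

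GA2ox2, whose enzyme inactivates GA, showed the largest rise in WT among these genes. WT LTMH held 4.30, 5.66 and 7.03 FPKM against 0.0991, 0.480, 0.219 and 0.292 FPKM in WT CT, a log2 fold change of 4.35 ± 0.36 (edgeR adjusted p = 0.000113). GA2ox2 was selected in part with these WT LTMH libraries, so this p-value is a description. 35S:asCCD7 held 1.77, 2.08, 3.02 and 2.73 FPKM in LTMH against 0.570, 0.0890, 0.328 and 1.16 FPKM in CT, a change of 2.15 ± 0.58 (edgeR adjusted p = 0.0436). 35S:nahG held 1.67, 1.33 and 2.61 FPKM in LTMH against 0.808, 1.17, 0.806 and 1.46 FPKM in CT, a change of 0.82 ± 0.30 (edgeR adjusted p = 0.0436) with overlapping groups.

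GA2ox2 in Never ripe changed by 1.52 ± 0.47 in LTMH, which edgeR did not call (adjusted p = 0.0582) and DESeq2 did (adjusted p = 0.00872), as did edgeR without Never ripe CT replicate 2 (1.92, edgeR adjusted p = 0.0421). The interaction was −3.53 ± 0.51 in 35S:nahG, given as a description (4.58% of all tested genes were called lower in it). The rise was smaller in Never ripe than in WT (interaction −2.85 ± 0.66, edgeR adjusted p = 0.0156, with 3.07% called lower), and the difference of −2.20 ± 0.75 for 35S:asCCD7 was not called (edgeR adjusted p = 0.151). In LTMH GA2ox2 was lower than in WT in Never ripe (−1.16 ± 0.22, edgeR adjusted p = 0.0251) and in 35S:asCCD7 (−1.22 ± 0.24, edgeR adjusted p = 0.0242), against the same 3 WT libraries, and the difference in 35S:nahG was −1.60 ± 0.28. These 3 WT libraries took part in the selection of GA2ox2. The p-values here and those of the interactions are therefore a description. In CT GA2ox2 was higher than in WT in 35S:nahG (1.95 ± 0.41, edgeR adjusted p = 0.00575). The CT difference of 1.70 ± 0.57 in Never ripe was not called by edgeR (adjusted p = 0.0543). It passed with DESeq2 (adjusted p = 0.0154) and in the fit over all 8 groups (edgeR adjusted p = 0.0256). In 35S:asCCD7 CT 0.95 ± 0.71 was not called (edgeR adjusted p = 0.431).

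Several of these GA2ox2 calls were lost when 1 library was left out. The call in 35S:asCCD7 LTMH against CT was lost in 7 of 8 fits that left out a library, that in 35S:nahG in 5 of 7, and those against WT in LTMH in 4 of 6 for Never ripe and 4 of 7 for 35S:asCCD7, with edgeR adjusted p up to 0.115, 0.208, 0.0982 and 0.111. The fits that kept the call were those without CT replicate 4 in 35S:asCCD7, and without CT replicate 4 or LTMH replicate 3 in 35S:nahG. Against WT in LTMH they were those without WT replicate 2 or Never ripe replicate 4, and without WT replicate 2 or 35S:asCCD7 replicate 1 or 3. In the fit over all 8 groups, the calls of 35S:nahG LTMH against CT and of Never ripe against WT in LTMH were also lost (edgeR adjusted p = 0.175 and 0.140).

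GAI-like 1 had a lower mean in LTMH in every line, and edgeR called the fall in 3 lines. It was at 0.907, 0.666 and 0.316 FPKM in WT LTMH against 13.3, 3.49, 15.9 and 8.72 FPKM in WT CT, and at 0.575, 2.27 and 1.28 FPKM in 35S:nahG LTMH against 21.8, 19.7, 23.0 and 24.2 FPKM in 35S:nahG CT. The log2 fold change was −4.04 ± 0.58 in WT (edgeR adjusted p = 0.00133), −4.02 ± 0.34 in 35S:nahG (edgeR adjusted p = 1.25e-05) and −2.71 ± 0.72 in 35S:asCCD7 (edgeR adjusted p = 0.0420), the last with overlapping groups. In Never ripe −2.04 ± 0.64 was not called by edgeR (adjusted p = 0.0627), although the groups did not overlap, as for 33.6% of all tested genes. It passed with DESeq2 (adjusted p = 0.0413), in the fit over all 8 groups (edgeR adjusted p = 0.0351) and without LTMH replicate 3 or 4 (edgeR adjusted p = 0.0292 and 0.0221). None of the interactions was called for GAI-like 1 with all libraries, and that of Never ripe passed without Never ripe LTMH replicate 4 (2.50, edgeR adjusted p = 0.0417). In CT GAI-like 1 was higher in 35S:nahG than in WT (1.11 ± 0.36, edgeR adjusted p = 0.0367).

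GAI-like 1 and the tapetum sum were high in the same CT libraries. The 35S:nahG CT libraries had the most of both, and WT CT replicate 3 (15.9 FPKM beside a sum of 893) and 35S:asCCD7 CT replicate 3 (7.14 beside 104) were the highest of their groups in both. The part of the tapetum or of developmental stage in the GAI-like 1 results was not tested. The calls of 35S:asCCD7 LTMH against CT and of 35S:nahG against WT in CT were lost in 7 of 8 and 5 of 8 fits that left out a library, up to an edgeR adjusted p of 0.108 and 0.0986. The call was kept only without 35S:asCCD7 CT replicate 4, and without WT CT replicate 1, 2 or 3, and the fit over all 8 groups also lost the call of 35S:nahG against WT (edgeR adjusted p = 0.139).

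RSI-1 was lower in 35S:nahG than in WT at both temperatures. The mean was 9.10 FPKM in 35S:nahG LTMH against 18.2 FPKM in WT LTMH (log2 fold change −1.0 ± 0.13), and 5.68 FPKM in 35S:nahG CT against 16.6 FPKM in WT CT (−1.54 ± 0.15, edgeR adjusted p = 0.000104). It rose in LTMH in 35S:nahG (0.68 ± 0.14, edgeR adjusted p = 0.00289) and was not called there in the other 3 lines, although −0.51 ± 0.17 in Never ripe passed without LTMH replicate 4 (−0.62, edgeR adjusted p = 0.0494). KAO1 was called in none of the 10 pairwise comparisons by edgeR, with group means between 1.25 and 2.06 FPKM.

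**Figure D5:**
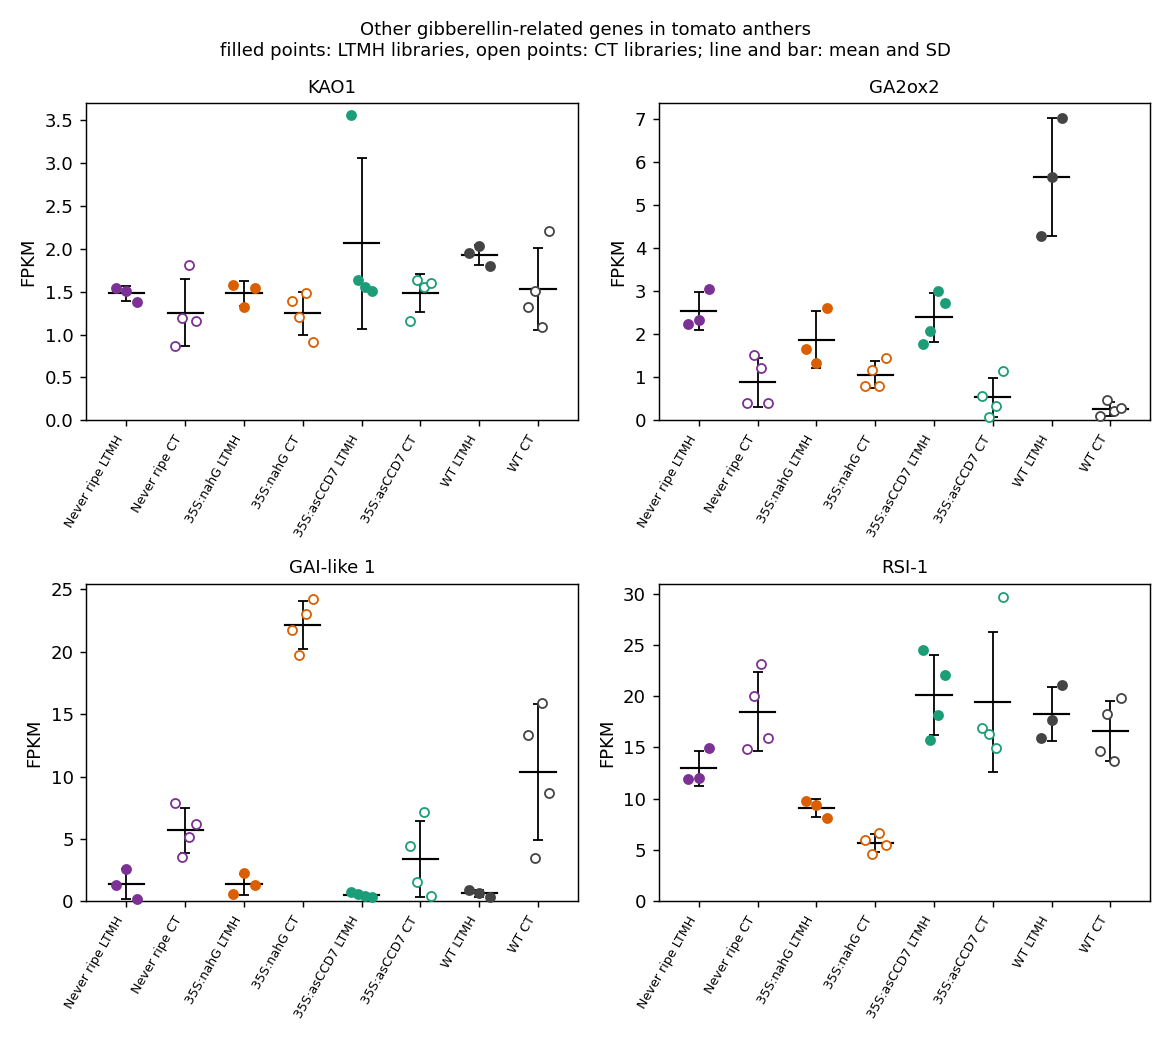
Deposited FPKM of KAO1, GA2ox2, GAI-like 1 and RSI-1 in each of the 29 libraries (vertical axes, each from 0), by line and temperature, with filled points for LTMH, open points for CT, and line and bar for mean and SD (n = 3 or 4). GA2ox2 is highest in WT LTMH (mean 5.66 FPKM), and GAI-like 1 in 35S:nahG CT (mean 22.2 FPKM).

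Across the 29 libraries, which share groups and so are not independent, the members varied together to different degrees. GA20ox2 and GA3ox1 had a Pearson correlation of 0.82 (log2 CPM), GA20ox1 and PROCERA 0.76, and GID1a was negative with all 5 other members (−0.33 to −0.70). No other tested gene with a mean of at least 1 CPM was more like GA20ox1 than Solyc09g064530 (r = 0.92, an AUX/IAA auxin repressor gene in the study's annotation), and none more like GA20ox2 than Solyc07g063970 (r = 0.94). The corresponding genes were Solyc11g011770 for GA3ox1 (r = 0.90), Solyc06g054550 for GID1a (r = 0.90), Solyc12g007300 for GID1b1 (r = 0.84) and Solyc07g006035 for PROCERA (r = 0.89), none of which was itself a member. These were chosen from 18242 genes as the highest of many and are a description only.

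Around each member called against WT, between 0 and 3 of the 20 nearest tested genes, in the order of identifiers along the chromosome, were called in the same direction. In 35S:nahG against WT in CT these were 1 of 20 around GA20ox1 and GID1b1 and 2 of 20 around GA20ox2 and GA3ox1, where 8.55% of all tested genes were called lower. In 35S:nahG against WT in LTMH they were 3 of 20 around GA20ox1, where 4.59% were called higher, and 1 of 20 around GA20ox2, where 4.83% were called lower. They were 1 of 20 around GA20ox2 in Never ripe against WT in LTMH (1.9% lower) and 0 of 20 around GA20ox1 in 35S:asCCD7 against WT in LTMH (3.66% higher).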

How the data were processed

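RNA-seq libraries (NEBNext Ultra, a kit that does not mark strand) of 6 pooled anthers each were mapped by the authors to the SL3.0 tomato genome with HISAT2 2.0.5, and reads per ITAG3.2 gene were counted with featureCounts 1.5.0-p3. The deposited gene counts (0 columns without a sample) were tested as they stand. The FPKM values deposited by the authors were used for levels only, and their library sizes match TMM-scaled sizes (ratio to the median library 0.991 to 1.01) more closely than column sums (0.872 to 1.10). The methods state 4 replicates per group, and 3 groups had 3 libraries here. Of 35092 identifiers, 1167 were not Solyc identifiers.

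Each comparison was fitted on its own libraries with edgeR 4.0.16 in R 4.3.3 (TMM, quasi-likelihood test, filterByExpr with a minimum count of 10 over all 8 groups). P-values were adjusted over all 21637 tested genes by the Benjamini-Hochberg method, and the SE was the size of the log2 fold change divided by the root of F. Interactions compared the LTMH response of a line with that of WT. The fit was tested on simulated data. Separate libraries were treated as replicates, and nothing states that they came from separate plants, so p-values measure the spread between these libraries. Intervals and detection limits cover counting error only. Likeness was Pearson's correlation of log2 CPM (prior count 2).

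The text names all 9 members, for each tested member the more alike of the 2 genes most like it, and other GA pathway genes by annotation. No table of gene names matched the identifiers, so this annotation came from the study's supplements, 1 table of which was held in part. The members and lists were chosen with earlier results of these data known. Alternatives were DESeq2 1.42.0, RLE normalization, no filter on low counts, a filter over the libraries compared, a fit over all 8 groups, the replicate number as a block, and leaving out each library. GID1b2, sequences and coordinates were not used here.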

Additional observations from a re-analysis of the deposited data

Results flagged for a closer look

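In 35S:asCCD7 CT, GA3ox1 in replicate 4 was far from the rest of its group, at 0.0863 FPKM against 0.0222 to 0.0315 FPKM in the other 3 libraries. It was the 1 such value among 30 sets of a member and a group of 4, where chance alone gives about 1 in 20. The same library had the most GA20ox1 and the lowest tapetum sum of all 29 libraries.

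The LTMH response of 35S:nahG differed from that of WT for 3 members, by the test of the difference itself. The log2 difference was 6.31 for GA20ox1, 1.22 for GID1b1 and 0.36 for PROCERA (edgeR adjusted p = 0.000795, 0.0497 and 0.0114). For GID1b1 10 of the 14 fits without 1 library missed the threshold, and for PROCERA the difference was under 1.5-fold. The tapetum sum was 2.66 to 3.36 FPKM in 35S:nahG LTMH against 1870 to 2805 FPKM in 35S:nahG CT, and 2.03 to 79.9 FPKM in WT LTMH against 85.4 to 893 FPKM in WT CT. The part of the tapetum or of developmental stage in these differences was not tested.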

How the results depend on the processing

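No called result reversed its direction under the alternatives run. Of the 78 results of a member in a comparison, 76 kept their call with DESeq2, 77 with RLE normalization, 77 with no filter on low counts, 75 of 75 with a filter over the libraries compared and 73 with a fit over all 8 groups. The cause of each change below was not tested. With DESeq2, 2 members instead of 1 were called in LTMH against CT in 35S:asCCD7 and 1 instead of 0 in the 35S:asCCD7 interaction, and all genes called were 1252 instead of 824 in 35S:asCCD7 against WT in CT, 1865 instead of 1196 in LTMH, and 637 instead of 69 in the interaction. In the fit over all 8 groups, members called were 1 instead of 2 in Never ripe LTMH against CT, 2 instead of 1 in 35S:asCCD7 LTMH against CT, 1 instead of 2 in 35S:nahG against WT in LTMH and in the 35S:nahG interaction, and 1 instead of 0 in the 35S:asCCD7 interaction. All genes called in that fit were 2714 instead of 1551 in 35S:asCCD7 LTMH against CT, 1297 and 2260 in 35S:asCCD7 against WT in CT and LTMH, and 675 in its interaction. RLE normalization and no filter on low counts each left 1 member in the 35S:nahG interaction.

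Leaving out 1 library gave 1 to 2 members and 1189 to 1875 genes in Never ripe LTMH against CT, and 1 to 2 members and 746 to 1921 genes in 35S:asCCD7 LTMH against CT. In CT it gave 0 to 1 members in Never ripe against WT and 507 to 937 genes in 35S:asCCD7 against WT. In LTMH it gave 0 to 1 members and 295 to 1498 genes in Never ripe against WT, 1 to 3 members in 35S:nahG against WT, and 0 to 2 members and 339 to 2085 genes in 35S:asCCD7 against WT. In the interactions it gave 1 to 2 members for 35S:nahG, and 0 to 1 members and 4 to 977 genes for 35S:asCCD7.

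The replicate numbers were not treated as pairs. Correlations of same-numbered deviations ranged from −0.38 to 0.39 over the comparisons. In none with 3 or more pairs did every one pass 0.1, nor did every sample correlate best with its own number. The 2 pairs of Never ripe against WT in LTMH did pass it (0.11 and 0.39). Low correlations cannot show that same-numbered libraries were not collected together. With the replicate number as a block, members called were 1 instead of 2 in Never ripe LTMH against CT, 0 instead of 1 in Never ripe against WT in LTMH, 1 instead of 2 in 35S:nahG against WT in LTMH and 1 instead of 2 in the 35S:nahG interaction. The block also lost GA3ox1 in WT LTMH against CT (1.75, edgeR adjusted p = 0.0999), GA2ox2 and GAI-like 1 in 35S:asCCD7 LTMH against CT (edgeR adjusted p = 0.0636 and 0.104) and GA2ox2 in Never ripe against WT in LTMH (edgeR adjusted p = 0.0903), and gained GA2ox2 in Never ripe against WT in CT (1.64, edgeR adjusted p = 0.0258). All genes called with the block were 688 instead of 1824 in Never ripe LTMH against CT, 818 in 35S:asCCD7 LTMH against CT, 90 instead of 938 in Never ripe against WT in LTMH, 691 in 35S:asCCD7 against WT in LTMH and 11 in its interaction. Depth limits GA3ox1 most, with 0 to 51 reads a library, and GA20ox3 and GA3ox2 could not be tested.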
